A study of Mus musculus with 24 samples.

Results

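The Hoxa cluster, and above all its posterior end with Hoxa7, Hoxa9, Hoxa10, Hoxa11 and Hoxa13, was examined for binding of Foxa proteins in mouse cells. All peaks of 14 deposited lists that overlap chromosome 6 from 52.1 to 52.225 Mb (mm9) were taken. This gave 36 of the 26332 peaks in all lists. The locus was chosen by these same peak counts, since a long string of peaks lies there in 1 list and hardly any peak in the others. Its counts are therefore a description and were not tested.

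The lists come from chromatin immunoprecipitation and sequencing (ChIP-seq) of C57BL/6 cells, and each belongs to 1 library. Induced hepatocyte-like (iHep) cells were derived from mouse embryonic fibroblasts taken 13.5 days post coitum, and all iHep lines also received Hnf4alpha, a nuclear receptor of hepatocytes. Line 4a1 received Foxa1, line 4a2 Foxa2 and line 4a3 Foxa3 besides. Each line was profiled with the antibody to its own Foxa protein in 3 libraries, and lines 4a2 and 4a3 once each with a Flag antibody. Hepatocytes from livers of adult mice at 10 weeks of age were profiled once with each of the 3 Foxa antibodies. Of the 14 libraries, 11 have the word EGS in their title, which the labels do not spell out, and 3 do not (called non-EGS here), 1 for each line. Since every iHep line has its own Foxa protein and its own antibody, effects of line, protein and antibody cannot be told apart. The labels do not say whether a line is 1 clone, and the files hold no expression values, so cell identity was not checked against marker genes. The libraries' depth is unknown. List length ran from 21 to 11408 peaks. Peak width also differed between the 3 non-EGS lists. The narrowest and median widths were 127 and 180 bp for Foxa3, 317 and 417 bp for Foxa1, and 320 and 458 bp for Foxa2. Peak counts of these lists are therefore not on the same scale, and how far this bears on the Hoxa counts was not tested.

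Hox genes encode homeodomain transcription factors that assign position along the body axis. They lie in clusters named Hoxa, Hoxb, Hoxc and Hoxd, and genes at the 5' end of a cluster act in more posterior parts of the embryo. Hoxa7 acts in the trunk. Hoxa9 is also known for its part in blood progenitors, Hoxa10 for the uterus, Hoxa11 for the limb's middle segment and the uterus, and Hoxa13 for the digits, the hindgut and the urogenital tract. Fibroblasts keep a pattern of Hox expression that depends on the body site they come from. Foxa proteins belong to the forkhead family and act in the development of liver and other organs from endoderm.

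In the RefSeq gene table (GRCm38.p6) Hoxa7, Hoxa9, Hoxa10, Hoxa11 and Hoxa13 follow each other with rising coordinate, with Evx1, another homeobox gene, beyond. The long non-coding RNA gene Mira precedes Hoxa7, Mir196b lies between Hoxa9 and Hoxa10, Hoxa11os follows Hoxa11, and Hottip follows Hoxa13. The peak lists use mm9, another build. Peaks were therefore not assigned to single genes, and the posterior end is named only as the high-coordinate side of the window. All 5 posterior genes had promoter sequences in RefSeq. The 250 bases before the start are shown for 3 of them, on the minus strand. These 3 were taken because they span the base composition of this end of the cluster. They also include its 1 match to the 4 forkhead-type words searched. Other forkhead-like words were not searched. Capitals mark that match, the letters TGTTTA.
Hoxa9 (GRCm38.p6, chr6:52227371-52227620, minus strand): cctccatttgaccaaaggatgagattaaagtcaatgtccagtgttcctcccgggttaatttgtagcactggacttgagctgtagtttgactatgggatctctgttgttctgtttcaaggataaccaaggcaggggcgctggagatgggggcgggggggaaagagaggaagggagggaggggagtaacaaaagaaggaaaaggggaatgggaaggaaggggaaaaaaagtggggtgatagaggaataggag
Hoxa10 (GRCm38.p6, chr6:52240855-52241104, minus strand): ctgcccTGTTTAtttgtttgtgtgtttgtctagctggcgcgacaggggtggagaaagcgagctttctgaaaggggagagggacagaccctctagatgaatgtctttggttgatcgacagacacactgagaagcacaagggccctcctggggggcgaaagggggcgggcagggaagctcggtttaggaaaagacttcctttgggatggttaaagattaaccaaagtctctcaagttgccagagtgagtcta
Hoxa13 (GRCm38.p6, chr6:52260881-52261130, minus strand): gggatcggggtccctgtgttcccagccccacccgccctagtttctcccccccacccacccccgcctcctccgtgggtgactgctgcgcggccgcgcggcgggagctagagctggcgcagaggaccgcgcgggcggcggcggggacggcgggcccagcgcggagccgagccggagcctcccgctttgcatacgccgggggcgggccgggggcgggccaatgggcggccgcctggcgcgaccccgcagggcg

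These positions are in GRCm38.p6 and cannot be set against the mm9 positions of the peaks, so whether a peak covers one of these promoters was not tested. The GC content was 49.6% before Hoxa9, 51.6% before Hoxa10 and 80.0% before Hoxa13, against a median of 52.4% over 32851 promoters. Forkhead-type words were searched on both strands in the 6 promoters of the 5 genes, Hoxa10 having 2. The word TGTTTAC was in none of them and in 3.2% of all promoters. TATTTAC was in none and in 2.7% of all, and TGTTTGC in none and in 4.3% of all. The shorter TGTTTA, which is part of TGTTTAC, was in the upstream Hoxa10 promoter alone among the 6, and in 3952 of the 32851 promoters. Such a match describes letters in a window of 250 bases and is no evidence of binding.

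Of the 36 peaks, 35 belonged to 1 library, Foxa3 in line 4a3 without EGS, and 1 to Foxa2 in line 4a2 without EGS. The other 12 lists held none. Within the Foxa3 non-EGS list, 34 of the 35 lay above the window's midpoint, on the high-coordinate side called the posterior end here. The remaining Foxa3 peak lay near the low end (52108479 to 52108855, 377 bp wide), 63.0 kb before the next. The Foxa2 peak (52132015 to 52132488, 474 bp wide) also lay below the midpoint and overlapped no Foxa3 peak. It stood at the 72.7th percentile of its list by score.

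**Figure D1:**
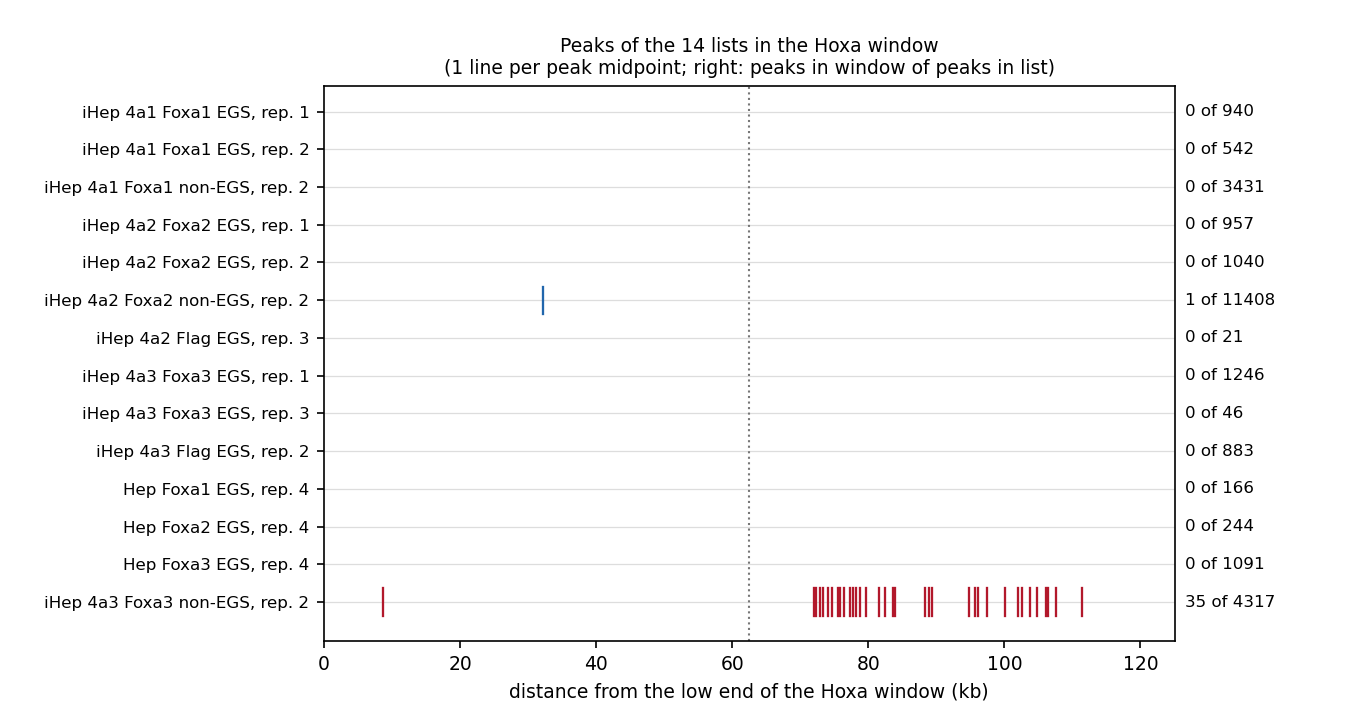
Peaks of each of the 14 lists (rows) along the 125 kb Hoxa window, with 1 line per peak midpoint, the distance from the window's low end in kb on the horizontal axis, a dotted line at the window's midpoint, and at the right the number of peaks in the window and in the list. The Foxa3 non-EGS list has 34 lines right of the midpoint and 1 left of it, the Foxa2 non-EGS list has 1, and the other 12 rows are empty.

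How often a list has a peak in a stretch of this length was read from 21109 windows of 125 kb laid end to end over the genome. For the Foxa3 non-EGS list, 9.96% of the windows held at least 1 peak and 0.171% at least 10. Only 0.00474%, 1 window, held at least 35, on chromosome 19 from 5750001 to 5875000. The window with the whole Hoxa run held 34 and came next. The list chose the locus, so nothing is read from these shares about how unusual the locus is.

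In every other list a window of this length without a peak was the usual case. In line 4a3, 3.56% of windows held a peak of Foxa3 EGS replicate 1 (1246 peaks) and 0.0805% a peak of replicate 3 (46 peaks). For the Flag list of this line (883 peaks) the share was 3.69%. In line 4a1 it was 3.95% and 2.04% for Foxa1 EGS replicates 1 and 2, and 13.3% for Foxa1 without EGS. In line 4a2 it was 4.12% and 4.36% for Foxa2 EGS replicates 1 and 2, and 0.0805% for the Flag list of 21 peaks. The longest list, Foxa2 without EGS, had a peak in 31.7% of windows, so its single Hoxa peak stands near the background. In hepatocytes the shares were 0.346% for Foxa1, 0.796% for Foxa2 and 1.68% for Foxa3. For a list with no Hoxa peak, the Hoxa window is thus like most windows of the genome.

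Counted as a share of its list, the Hoxa window held 0.811% of the 4317 Foxa3 non-EGS peaks. The lists of line 4a3 with EGS held 0 of 1246 and 0 of 46 peaks there, and the hepatocyte Foxa3 list 0 of 1091. These counts chose the locus and the peaks of the run are not independent, so the shares were not compared further. This is the 1 non-EGS Foxa3 library analysed here, so the run has no replicate made in the same way. The titles of the other 13 libraries with a list end in a number that its title lacks, and the labels do not say what that number stands for. What belongs to this 1 library and what to the absence of EGS in line 4a3 cannot be told apart.

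Peaks close to the run were few in the lists. The nearest peaks of the Foxa3 non-EGS list outside the window lay 137.5 kb below it (51962357 to 51962483) and 365.2 kb above it (52590159 to 52590304). In the 500 kb on each side of the run it had 2 peaks below and 2 above. The nearest peak of Foxa3 EGS replicate 1 lay 752.0 kb from the run, that of the hepatocyte Foxa3 list 452.3 kb and that of the Foxa1 non-EGS list 419.2 kb. The Foxa2 peak inside the window was 39.4 kb from the run, the closest peak of any other list.

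Along the posterior end the 34 peaks formed 1 run, defined by gaps of at most 5 kb, from 52171874 to 52211547 on chromosome 6, a span of 39.7 kb. They made up 8.7% of the 393 peaks of this list on chromosome 6. The peaks covered 10330 bp, or 26.0% of the span, so the list gives the run as a string of separate peaks. Peak lists hold no signal between peaks, so whether 1 broad region was split in calling was not tested. Gaps ran from 65 to 4974 bp with a median of 456 bp, and 24 of the 33 gaps were under 1 kb.

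The peaks were crowded at the run's low end, the side nearer to Hoxa7. The first 10 kb held 15 peaks that covered 5481 bp, at a median score percentile of 64.6. The next 10 kb held 6 peaks, at a percentile of 47.8, and the 10 kb after that 5 peaks, at 65.6. The last stretch, toward Hoxa13, held 8 narrower peaks that covered 1606 bp, at a median percentile of 18.5. The score is the authors' value for each peak and is used here only to rank peaks within a list.

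With gaps of at most 2 kb the run fell into 5 pieces. The first had 18 peaks over 12.2 kb (52171874 to 52184079). After an empty stretch of 4111 bp came 3 peaks over 1.47 kb (52188191 to 52189658), and after 4974 bp, the widest gap, 4 peaks over 2.99 kb (52194633 to 52197619). A piece of 8 peaks over 7.67 kb followed (52199924 to 52207598), at a median percentile of 18.8, and a single peak of 324 bp closed the run (52211224 to 52211547), at the 2.1st percentile. The first 3 pieces had median percentiles of 58.6, 56.0 and 66.4. By median rank the last 2 pieces were thus lower than the first 3.

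Single peaks of the run ranked from high to nearly last in their list. The highest, from 52176340 to 52176645 (306 bp), ranked 229 of 4317, at the 94.7th percentile. The widest, 1081 bp from 52180991 to 52182071, ranked 398, at the 90.8th percentile. These 2 were the run's only peaks in the top decile of the list. The next were 294 bp from 52188191 (85.4th percentile), 641 bp from 52177886 (85.3rd), 425 bp from 52197195 (85.3rd) and 715 bp from 52173696 (80.9th). At the other end, the 129 bp peak from 52203744 to 52203872 ranked 4289, at the 0.6th percentile. In all, 17 of the 34 lay above the list's median score, 6 in its top 25% and 9 in its bottom 25%. The median percentile was 47.3, so in median rank the run was close to the list as a whole.

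**Figure D2:**
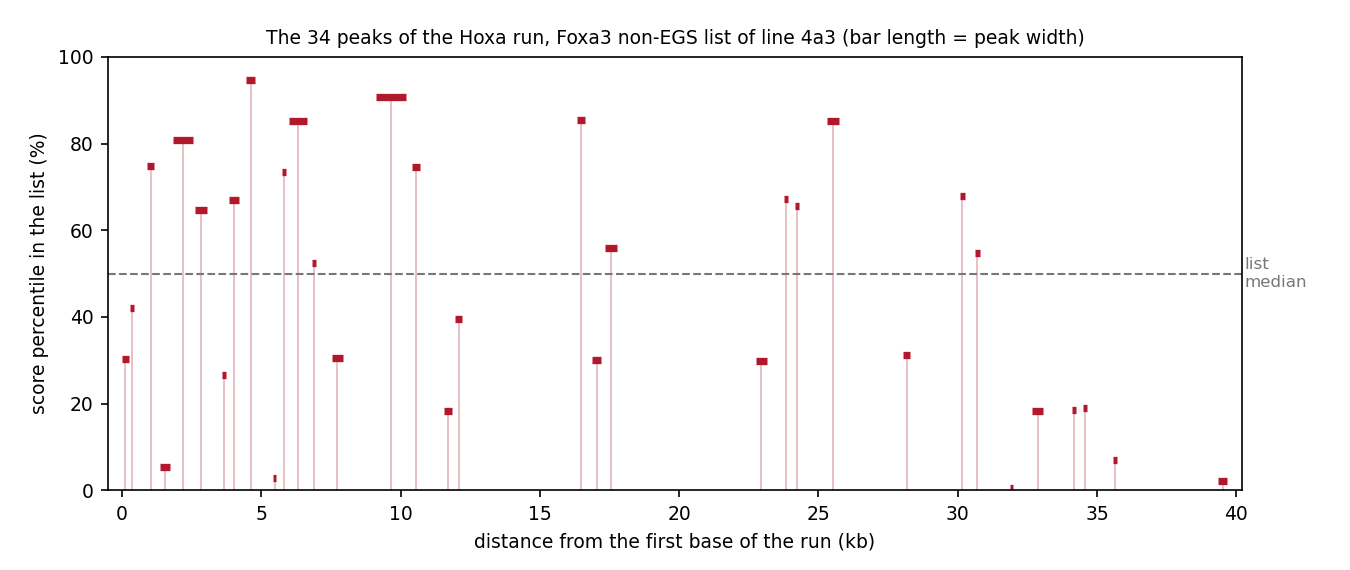
The 34 peaks of the Hoxa run in the Foxa3 non-EGS list, with the distance from the run's first base in kb on the horizontal axis and the percentile of the score within the list on the vertical axis. Bar length is the peak's width and the dashed line is the list's median: peaks reach the 94.7th percentile in the first 5 kb, and the last 6 all lie below the 20th.

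In width the run's peaks had a median of 273 bp, from 127 to 1081 bp, against 180 bp in the whole list, and 21 of the 34 were wider than that median. Peaks that lay close together in this list were wider in general. The median width was 159 bp for the 1881 peaks that stood alone, 189 bp in runs of 2 to 4, 249 bp in runs of 5 to 9 and 245 bp in the other 16 runs of 10 or more. The Hoxa run was thus near the other long runs in width when their peaks were pooled. Taken run by run, 5 of the other 16 had a wider median, and their medians ran from 155 to 515 bp over all 16. In the top decile by score the Hoxa run had 2 of its 34 peaks, or 5.9%. The share was 15.5% in the other long runs, 16.9% in runs of 5 to 9, 12.4% in runs of 2 to 4 and 5.5% among peaks that stood alone. The rank correlation between width and score was 0.35 over the 34 peaks and 0.34 over the list, peaks of 1 library that share its depth and threshold.

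The Foxa3 non-EGS list had 17 runs of at least 10 peaks, and the Hoxa run held the most peaks and spanned the greatest length. Next came runs of 30 peaks over 30.8 kb on chromosome 19 (5819501 to 5850312), 19 over 26.7 kb on chromosome 2 (152630400 to 152657068) and 18 over 15.7 kb on chromosome 18 (43882246 to 43897958). The first place does not hold at other gap limits. With gaps of up to 2 kb or up to 10 kb the Hoxa run came to place 2, and in the top-scoring 50% of the list to place 3. Per kb the Hoxa run was not dense. It had 0.86 peaks per kb, and 13 of the other 16 long runs had more, up to 2.06. Its median score percentile was exceeded by 10 of the 16. The medians of all 16 ran from 24.6 to 88.3.

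**Figure D3:**
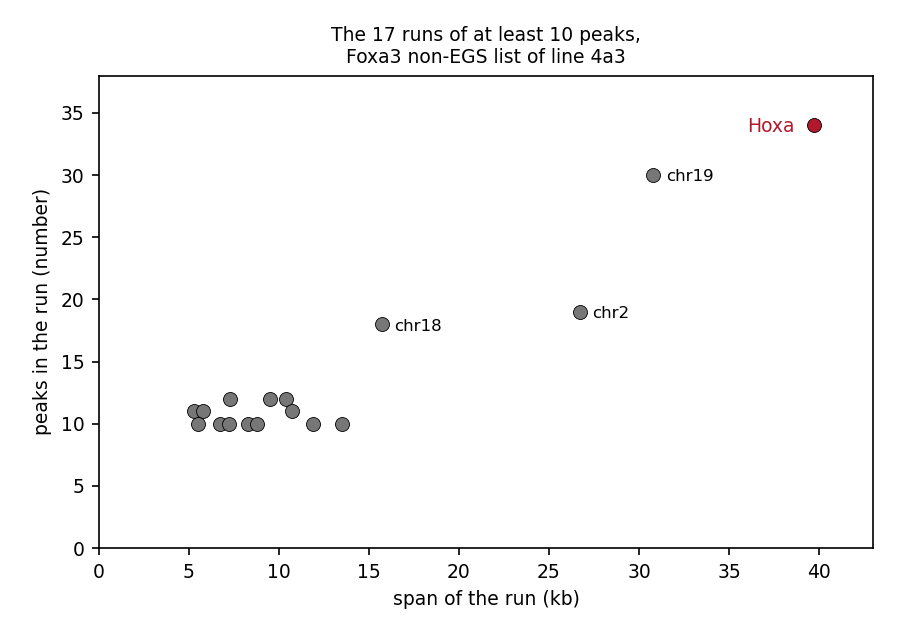
The 17 runs of at least 10 peaks in the Foxa3 non-EGS list, with the span in kb on the horizontal axis and the number of peaks on the vertical axis. The Hoxa run (red) lies at the upper right with 34 peaks over 39.7 kb, next to the run on chromosome 19 with 30 over 30.8 kb.

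Most of the other long runs held at least 1 peak of another list, and the Hoxa run held none. None of its 34 peaks overlapped a peak of any other list. Of the other 16 long runs, 15 held a peak of another list, and a median of 18.4% of their peaks were overlapped by one, up to 72.7%. The 1 other run with none lay on chromosome 9 (102619154 to 102629554, 12 peaks). Foxa3 EGS replicate 1 had peaks in 11 of the 16, Foxa3 EGS replicate 3 in 2 and the hepatocyte Foxa3 list in 6. On chromosome 19 Foxa3 EGS replicate 1 had 22 peaks and the hepatocyte Foxa3 list 12. Over the whole Foxa3 non-EGS list, 27.6% of peaks (exact 95% Clopper-Pearson interval 26.3 to 29.0, for counting error only) overlapped a peak of another list, 14.8% one of Foxa2 non-EGS and 12.6% one of Foxa3 EGS replicate 1. The absence of other lists helped to choose the locus, so this contrast is a description as well.

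**Figure D4:**
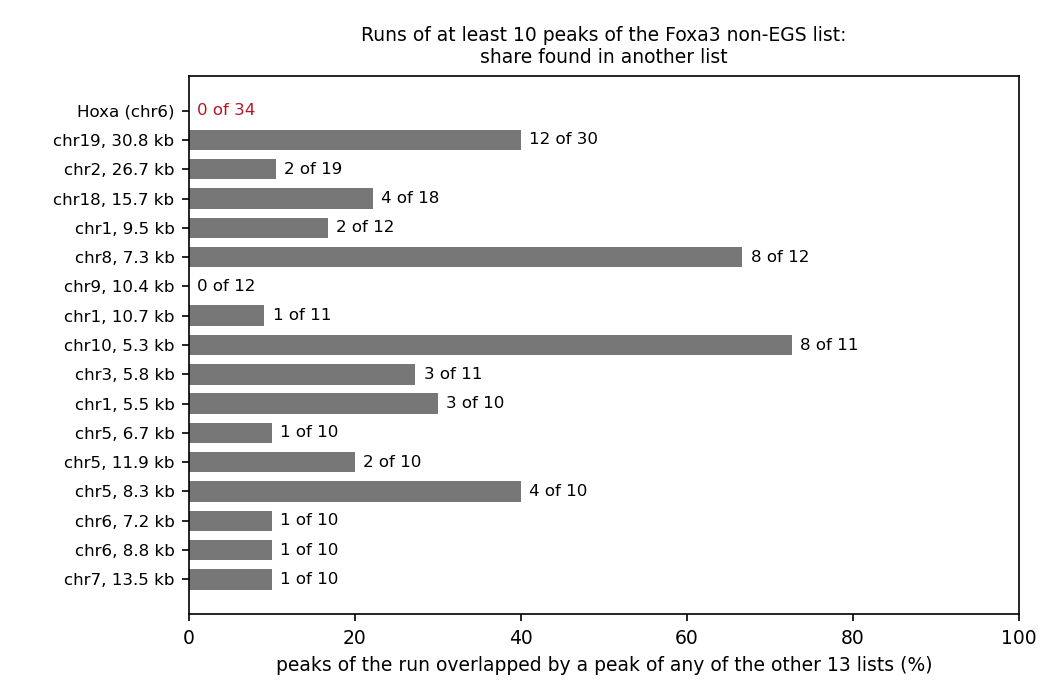
Share of peaks in each of the 17 long runs of the Foxa3 non-EGS list that overlap a peak of any of the other 13 lists, in percent, with the counts beside each bar. The Hoxa run (0 of 34) and a run on chromosome 9 (0 of 12) have no bar, and the highest share is 8 of 11 peaks on chromosome 10.

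In the Foxa3 non-EGS list the other Hox clusters gave fewer peaks than Hoxa, 8 in Hoxc and none in Hoxb or Hoxd. Of the 125 kb windows over the genome, 9.96% held at least 1 peak of this list and 0.171% at least 10. A window without a peak of this list was thus the usual case. No list had a peak in the Hoxb window of 185 kb (chromosome 11, 96.05 to 96.235 Mb). The Hoxd window of 120 kb (chromosome 2, 74.49 to 74.61 Mb) held 1 peak, of Foxa1 in line 4a1 without EGS (74490594 to 74491106), close to the window's low edge and at the 58.2nd percentile of its list. The Hoxc window of 120 kb (chromosome 15, 102.75 to 102.87 Mb) held 13 peaks in 3 lists. Of these, 8 were of Foxa3 non-EGS, 4 of Foxa2 non-EGS and 1 of Foxa2 EGS replicate 1. In peaks per 100 kb the Foxa3 non-EGS list had 28 in the Hoxa window and 6.67 in the Hoxc window. Peak width differed between the non-EGS lists, so counts of different lists are not on the same scale.

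The Foxa3 non-EGS peaks in the Hoxc window differed from the Hoxa run as a whole in rank and spacing. They were closer in rank and width to the run's high-coordinate end. The last stretch of the run held 8 peaks of median width 159 bp at a median percentile of 18.5. All 8 Foxa3 non-EGS peaks in the Hoxc window lay in the low-scoring part of their list, at percentiles from 0.3 to 31.4, and were 127 to 195 bp wide. A group of 4 lay close together (102783451 to 102787436), a pair lay 894 bp apart (102828369 to 102829543), and the other 2 were more than 5 kb from their neighbours. At 2 positions the Foxa3 and Foxa2 lists met. The Foxa3 peak from 102794128 to 102794269 lay inside a Foxa2 non-EGS peak (102793925 to 102794374). That from 102828369 to 102828522 overlapped a Foxa2 non-EGS peak (102828265 to 102828636) and the 1 peak of Foxa2 EGS replicate 1 (102828447 to 102828543). In the Hoxc window 2 of 8 Foxa3 non-EGS peaks were thus found in line 4a2, against 0 of 35 in the Hoxa window. Over the whole list 14.8% of peaks overlapped one of Foxa2 non-EGS and 27.6% one of any other list. The absence of other lists helped to choose the Hoxa locus, and the difference between the 2 windows was not tested.

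**Figure D5:**
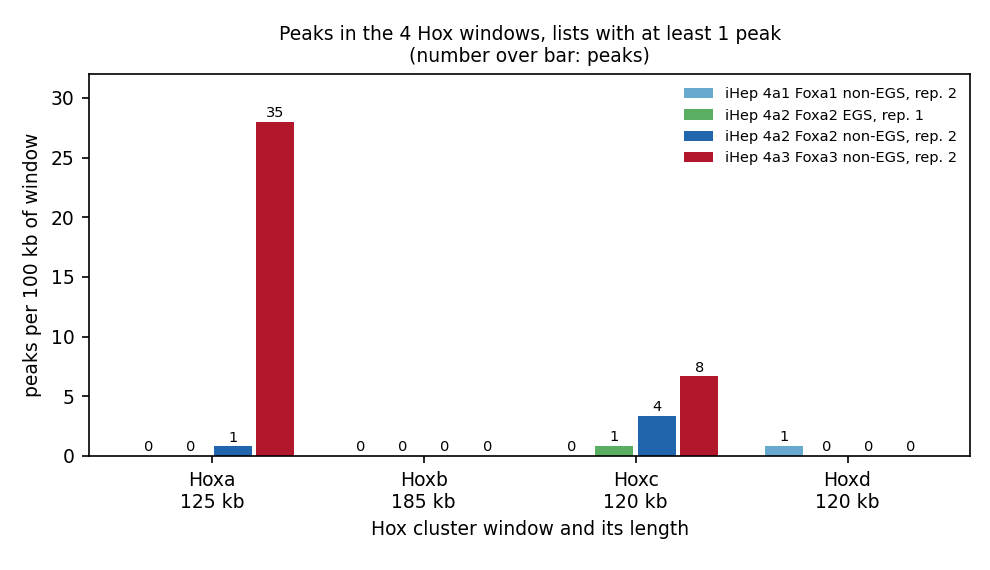
Peaks per 100 kb in the Hoxa, Hoxb, Hoxc and Hoxd windows for the 4 lists with at least 1 peak in any of them, with the number of peaks over each bar. The Foxa3 non-EGS list reaches 28 in the Hoxa window (35 peaks) and 6.67 in the Hoxc window (8 peaks), and no list has a peak in the Hoxb window.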

How the data were processed

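ChIP-seq peak lists of 14 libraries were analysed, out of 24 samples. The other 10 are inputs, for which no file was used. The submitters' processing notes name build mm9, MACS2 2.1.0, BWA 0.6.2 and bedtools 2.16.2, without their settings or order. Each deposited list gives a chromosome, start, end, name and a score, the authors' value per peak. For its scale, the calling threshold and any use of input the labels and files give no statement. Each file belongs to 1 library, so lists were taken as called per library. Groups follow the titles.

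The members and the windows were chosen with earlier results of these data known. Peaks were counted in the 4 Hox windows with Python 3.11.15 and scipy 1.17.1 (overlap of at least 1 bp). Runs are strings of peaks with gaps of at most 5 kb. Score percentiles are within a list, with ties at their mean rank. Starts are printed 1-based. The named genes are the 5 posterior Hoxa genes with their neighbours, and the named peaks are all in the Hox windows. Leading runs were to be named at the Hoxa run's size, which no other reached, so the runs and the peaks outside the windows that are given by position were chosen after their values were seen. Counting and run finding were tested on simulated data. Promoters were matched by symbol in RefSeq (GRCm38.p6). No test was run.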

Additional observations from a re-analysis of the deposited data

How the results depend on the processing

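Of 41 alternatives to 13 values, 27 left the value within 1.5 times. In the Foxa3 non-EGS list the Hoxa window held 17 peaks with the top-scoring 50% of the list and 11 with peaks within 1 kb merged, against 35. The count for the Foxa3 libraries of line 4a3 together ran from 0 to 35 when each library was left out, and it was 0 without the non-EGS library. The run held 18 peaks with gaps of at most 2 kb, 10 with the top-scoring 50% and 10 after merging, against 34. Its place among the runs of the list was 2 with gaps of 2 kb or 10 kb and 3 with the top-scoring 50%, alternatives chosen after seeing the data. Above its midpoint the window held 17 and 10 peaks with the top-scoring 50% and after merging. All lists together had 2 peaks in the Hoxc window with the top-scoring 50%, against 13. Genome windows with at least as many peaks as the Hoxa window numbered 0 with the tiling shifted by a part of its length and 2 after merging, against 1. Fewer peaks enter when a list is thinned or merged. The 12 lists without a Hoxa peak had none in a window widened by 25 kb on each side. No paired analysis was possible because no value comes from a test between groups. Depth is unknown, so a missing peak cannot be told from a library too shallow to show one.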
